A study of Sus scrofa with 2 samples.

Results

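The enzyme-rich barcodes described here were the 1404 of 28097 barcodes, in 2 single-nucleus libraries of pig pancreas, that spent the largest share of their RNA on digestive enzyme transcripts. A barcode labels a droplet, which should hold a single nucleus, and a UMI labels a captured RNA molecule. For each barcode, the UMIs on 9 enzyme genes (PRSS2, CPA1, CPB1, CEL, CELA2A, PLA2G1B, PNLIP, PNLIPRP1 and PNLIPRP2) were divided by all of its UMIs, and the top 5% of each library were taken, which gave 659 of 13189 WT barcodes and 745 of 14908 PIGinH11 barcodes. Barcodes had to detect 270 to 3700 genes and to stay below 13000 UMIs. Each of the 2 groups was 1 piece of pancreas of 1 Bama pig. The WT pig was wild type. The PIGinH11 pig carried knocked-in GIPRdn, hIAPP and PNPLA3 I148M in the H11 locus, under promoters that the study describes as specific to beta cells or liver. Both pigs were 18 months old and had eaten control diet until 6 months and then, for 12 months, a high-fat and high-sugar diet (control diet 53%, with 37% sucrose and pork lard at 10%), so the diet was shared and not compared. The WT matrix held 55784067 UMIs (median 3216 per barcode) and the PIGinH11 matrix 26228811 (median 1181.5). With 1 library per group and members chosen by a measured share, no test was possible, and every interval below is an exact 95% interval that covers counting error only, not the difference between animals.

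Acinar cells make up most of the pancreas and synthesise digestive enzymes, mostly as inactive zymogens such as trypsinogen, procarboxypeptidase and proelastase. These proteins are made on ribosomes bound to the endoplasmic reticulum, enter it through the Sec61 translocon, are folded there and stored in zymogen granules until a secretagogue such as cholecystokinin releases them. Their mRNAs are among the most abundant of any cell and lie mainly in the cytoplasm, while unspliced transcripts of long genes lie in the nucleus, so an isolated nucleus carries some enzyme mRNA and free enzyme mRNA can also enter droplets.

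The enzyme share of the barcodes had a different shape in the 2 libraries. In the WT library the members spanned 20.4% to 68.9% of their UMIs on the 9 genes, with a median of 42.7%, against a median of 5.96% in the other barcodes. The WT distribution fell to 15 barcodes between 37.5% and 40% and then rose again to 61 barcodes between 52.5% and 55%. In the PIGinH11 library the members spanned 7.58% to 41.9%, with a median of 8.44%, against 3.97% in the others. Of these 745 members 723 lay below 20%, and a small separate group of 15 barcodes lay above 30%. A share of at least 20% was reached by 684 WT barcodes (5.19% of 13189, 4.81% to 5.58%) and by 22 PIGinH11 barcodes (0.148% of 14908, 0.0925% to 0.223%), and a share of at least 50% by 233 WT barcodes and by 0 PIGinH11 barcodes. In WT the 5% took in the 348 barcodes at 40% or more, which hold the second rise, and 311 barcodes under 40% on the falling side of the main distribution, and in PIGinH11 it was mostly the upper edge of the main distribution. At the border, the last WT member had 118 of 579 UMIs on the enzyme genes (20.3800%) and the first barcode left out had 140 of 687 (20.3785%), and in PIGinH11 these were 91 of 1200 (7.5833%) and 123 of 1622 (7.5832%).

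**Figure D1:**
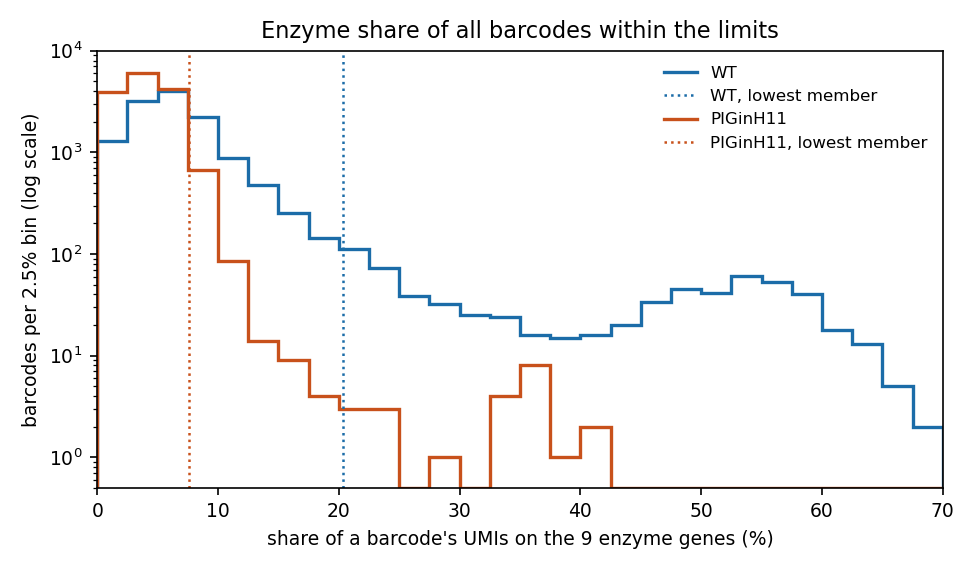
Number of barcodes (log scale) by the share of their UMIs on the 9 enzyme genes, in bins of 2.5%, for WT and PIGinH11. The dotted lines mark the lowest member of each library, at 20.4% and 7.58%, bins with 0 barcodes run along the lower edge, and WT shows a second rise with 61 barcodes between 52.5% and 55%.

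Among themselves the 9 enzyme genes had a different make-up in the members of the 2 libraries. PRSS2, which encodes anionic trypsinogen, took 62.3% of the enzyme UMIs of WT members and 45.9% of those of WT others, and 17.5% and 11.5% in PIGinH11. In PIGinH11 members the largest part was PNLIPRP1, a pancreatic lipase-related protein, with 31.1%, against 2.09% in WT members. PNLIP, the main pancreatic lipase, took 12.0% in PIGinH11 members and 3.69% in WT members, and CEL, the bile salt-dependent lipase, took 11.2% and 3.74%. CPA1, procarboxypeptidase A1, was close to even, with 15.5% in PIGinH11 and 16.1% in WT members. The 22 PIGinH11 members at 20% or more held 36.6% PRSS2 and 12.8% PNLIPRP1, which lay between the other PIGinH11 members (15.3% and 33.2%) and the WT members. In both libraries the shift from others to members ran toward PRSS2 and CELA2A, a pancreatic elastase (5.81% in members and 3.59% in others in WT, 2.68% and 1.45% in PIGinH11), and away from PNLIPRP1 and CPB1. Since all 9 genes were used to choose the members, the choice itself can shape this make-up, and no conclusion is drawn from the shift. Enzyme UMIs were also found in endothelial-like and stellate-like barcodes, which should not make these enzymes, at 135 per barcode in WT and 25.3 in PIGinH11 (PRSS2 57.9% and 15.7% of them), against 1780 and 241 per barcode in the members. The median depth of these barcodes was 3679 and 1510 UMIs, and of the members 3420 and 1797.

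**Figure D2:**
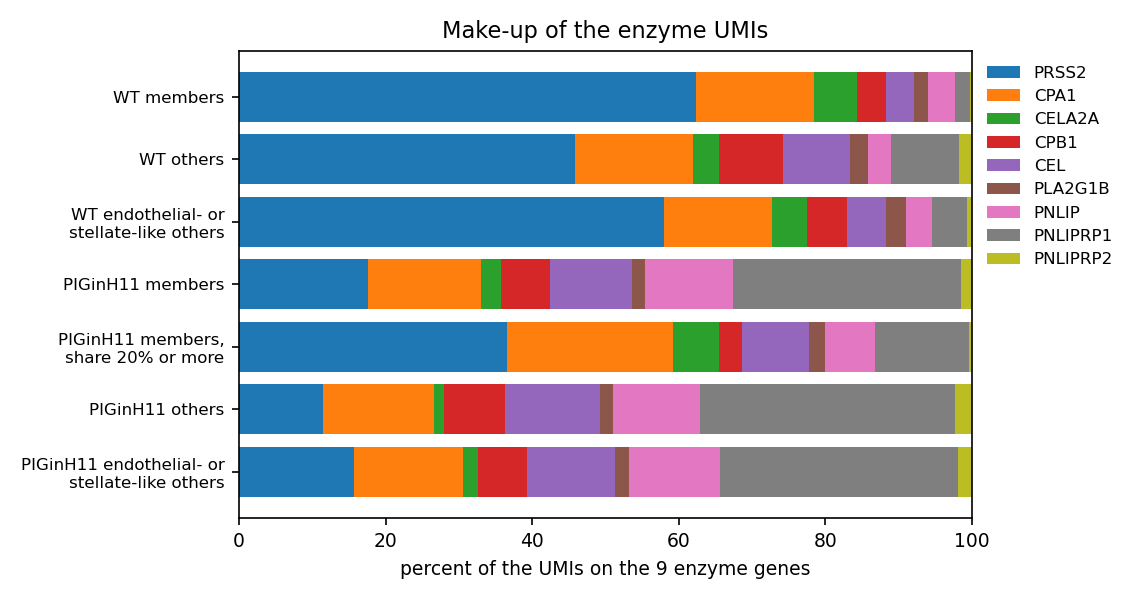
Percent of the UMIs on the 9 enzyme genes that belongs to each gene, summed over the barcodes of each group. PRSS2 takes 62.3% in WT members and 17.5% in PIGinH11 members, where PNLIPRP1 takes 31.1%.

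The label was checked with the 4 markers PRSS2, CELA2A, CLPS and CTRC, of which the last 2 were not used to choose the members. All levels from here on are CPM, the UMIs of a gene or list per 1000000 UMIs outside the 9 enzyme genes, summed over barcodes. CLPS, the colipase that helps lipase bind to fat droplets, was at 44100 CPM in WT members and 3440 in WT others, and at 10805 and 1789 in PIGinH11. CTRC, the chymotrypsin that degrades trypsin, was at 40560 and 3620 CPM in WT and at 5728 and 1482 in PIGinH11. Both markers were thus higher in the members of both libraries, with log2 ratios for CLPS of 3.68 (3.67 to 3.69) and 2.59 (2.57 to 2.62). Whether every member is an acinar nucleus is a separate matter. When each library was clustered without the enzyme, secretory, ribosomal protein and mitochondrial genes, 280 of 659 WT members (42.5%, 38.7% to 46.4%) fell in acinar-like clusters, 26 in ductal-like clusters, and 342 (51.9%, 48.0% to 55.8%) in cluster 8, which met no acinar marker and stayed unnamed. Cluster 8 held 351 barcodes in all, so 97.4% of it were members. In PIGinH11, 719 of 745 members (96.5%, 94.9% to 97.7%) fell in acinar-like clusters and 13 in ductal-like ones. The libraries shared 60 barcode sequences, of which 58 passed the limits in both, and 2 members of each library were among these.

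Members differed from the other barcodes in depth and in the number of genes detected. WT members had a median of 3420 UMIs, of which 1780 lay outside the enzyme genes, and 595 genes, while the others had 3088 UMIs, 2912 outside these genes, and 1647 genes. With each barcode thinned to 500 UMIs outside the enzyme genes, a median of 245 genes was left in 627 WT members and 412 in 12417 others (32 and 113 shallower barcodes were left out). The 342 members in cluster 8 detected 200 genes at this depth and WT members in acinar-like clusters 367.5. PIGinH11 members had 1797 UMIs and 1059 genes against 1153 and 806 in the others, and at 500 UMIs both had nearly the same number, 408 and 413 (16 and 298 left out). The 22 PIGinH11 members at 20% or more were like the WT group in this, with 187.5 genes. Doublet calls were rarer among members, at 5.92% in WT and 2.68% in PIGinH11, than among others, at 11.2% and 12.5%, but the WT difference came from the members at 40% or more, with 1 call in 348, while the 311 members under 40% were called at 12.2%.

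Other secretory products of acinar cells were far higher in the members of both libraries. Of 28 listed genes 15 were in the matrices and 13 passed the filter of 10 expected UMIs (CTRL was among those that did not), and 12 of these 13 were at least 2-fold higher in WT members and 9 in PIGinH11 members. Among all 10723 genes tested, 4.48% were at least 2-fold higher in WT members and 2.17% in PIGinH11 members, so the secretory genes stood well above the background. Summed, the list reached 113810 CPM in WT members and 13355 in others (log2 ratio 3.09, 3.084 to 3.098), and 31907 and 11703 CPM in PIGinH11 (1.45, 1.43 to 1.46). The median log2 ratio over the 13 genes was 3.06 in WT and 1.44 in PIGinH11, beside a median over all tested genes of -0.74 and -0.06. CELA1, another elastase, had the largest ratio of the list in WT, with 484 CPM in members and 26.5 in others, and in PIGinH11 it had 114 and 28.9. TFF2, a trefoil peptide that protects mucosa, was at 4972 and 501 CPM in WT and 621 and 158 in PIGinH11. The study, however, describes TFF2 as a gene of its Ductal-TFF cluster, so it is not a purely acinar product there. SPINK1, the trypsin inhibitor packed with the zymogens, was at 2568 and 511 CPM in WT and 1116 and 439 in PIGinH11. The smallest ratios were those of ERP27, a chaperone-like protein of the endoplasmic reticulum (log2 0.53 in WT), and PDIA2, the pancreatic protein disulphide isomerase (0.48 in PIGinH11), both under 2-fold there.

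The protein synthesis machinery was higher in the members as well. All 54 ribosomal protein genes passed the filter, and 54 were at least 2-fold higher in WT members and 48 in PIGinH11 members, with median log2 ratios of 2.79 and 1.51. Their sum was 38368 CPM in WT members and 5404 in others (log2 2.83, 2.82 to 2.84), and 8381 and 3053 in PIGinH11 (1.46, 1.43 to 1.48). RPLP1, a stalk protein of the large subunit, had the most UMIs, with 2990 and 288 CPM in WT and 437 and 89.7 in PIGinH11. Of 31 translation factors tested, 9 were at least 2-fold higher in WT (4.48% of all tested genes) and 6 in PIGinH11 (2.17% of all), 0 were lower, and the most UMIs were those of TPT1, a translationally controlled protein grouped with them (4277 and 450 CPM in WT, 479 and 125 in PIGinH11). The elongation factors EEF1G (log2 3.35 and 1.90) and EEF2 (2.88 and 1.29) were among them. Transcripts of the mitochondrial genome went the same way, with 10 of 10 tested genes at least 2-fold higher in WT and 8 in PIGinH11, and a sum of 5886 and 1271 CPM in WT and 1027 and 472 in PIGinH11. Mitochondrial transcripts do not come from the nucleus.

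Genes of the translocon, protein folding and the unfolded protein response were higher too, but less and unevenly. Of 48 tested genes 17 were at least 2-fold higher in WT and 9 in PIGinH11, and 0 were at least 2-fold lower, where all tested genes had 4.48% and 2.17% higher and 28.7% and 12.9% lower. The leading genes by UMIs were P4HB, a protein disulphide isomerase (log2 2.49 in WT and 1.02 in PIGinH11), SSR2, a subunit of the translocon-associated complex (2.72 and 1.51), and ATF6, a sensor of unfolded protein (-0.55 and 0.33). P4HB was at 1281 CPM in WT members against 229 in others, and at 382 against 188 in PIGinH11. Among 17 tested genes of zymogen granules and exocytosis, the summed log2 ratio of 2.05 in WT and 0.79 in PIGinH11 came from SYCN, syncollin (3.21 and 1.44), and GP2, the main granule membrane glycoprotein (1.65 and 0.83). The median of these 17 genes was -0.69 in WT and -0.05 in PIGinH11, close to that of all genes tested.

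Markers of acinar identity did not follow the enzymes, and with the top 5% as members the 2 libraries differed in sign. Most of the 10 acinar markers were chosen by the study on these same libraries, so they are not independent evidence of the acinar identity. RBPJL, the acinar-specific partner of the transcription factor PTF1A, was at 965 CPM in WT members and 1451 in others (log2 -0.59, -0.66 to -0.52), and at 2873 and 1887 in PIGinH11 (0.61, 0.56 to 0.65). All 10 genes were below 0 in WT and all 10 above 0 in PIGinH11, none by 2-fold. Of all 10723 tested genes, 3526 (32.9%) were also below 0 in WT and above 0 in PIGinH11, by any amount. The sum was 12754 CPM in WT members and 19872 in others (-0.64, -0.66 to -0.62), and 23489 and 17264 in PIGinH11 (0.44, 0.43 to 0.46). Against acinar-like others alone the ratio was -1.11 (-1.13 to -1.09) in WT and -0.02 (-0.04 to -0.01) in PIGinH11. Acinar-like clusters were named with these same 10 markers, so that reference was chosen for high values. Many WT members lay in cluster 8, which met none of the markers, so a low WT ratio is partly built in. With barcodes at a share of 20% or more in both libraries, a level set after the values were seen, it was below 0 in both (-0.59 in WT and -0.96 in PIGinH11). The WT value depended on what it was divided by. When only named genes outside the enzyme, secretory, ribosomal protein and mitochondrial genes were the denominator, all WT ratios shifted up by 0.63 and those of PIGinH11 by 0.09, the sum was at -0.01 in WT and 0.54 in PIGinH11, and 5 of the 10 markers were above 0 in WT. Genes without a symbol, which this denominator leaves out, took 28.6% of the UMIs of WT members outside the enzyme genes against 11.9% in others. Counted per barcode, the 10 markers had 4.47 UMIs in the WT members of cluster 8, 73.4 in WT members of acinar-like clusters, 91.1 in WT acinar-like others and 17.5 in WT endothelial-like and stellate-like barcodes. Without cluster 8 the log2 ratio of the WT members to all others was -0.15. The median in cluster 8 was 4 UMIs, beside 5 in the endothelial-like and stellate-like barcodes, 3 in ductal-like others and 12 in endocrine-like others. The typical barcode of cluster 8 thus had about as few as ductal-like, endothelial-like and stellate-like barcodes, and fewer than endocrine-like ones. These counts were not matched for depth. Median UMIs outside the enzyme genes were 1446.5 in cluster 8, 3566 in endothelial-like and stellate-like, 3378 in ductal-like and 3350 in endocrine-like others. Outside it, WT members of acinar-like clusters were at 19745 CPM, still under the 27460 CPM of WT acinar-like others.

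Acinar transcription factors, a short list of receptor and signalling genes and the stress genes had sums with the same signs, with log2 ratios in WT of -0.62, -0.83 and -0.64 and in PIGinH11 of 0.35, 0.23 and 0.32. These lists are not independent of each other. RBPJL is both an acinar marker and a listed transcription factor, and FOXP2 is in the transcription factor and receptor lists. Against acinar-like others alone, the PIGinH11 values were 0.02 (-0.01 to 0.04) for the transcription factors, -0.05 (-0.09 to -0.01) for the receptor list and 0.26 (0.21 to 0.32) for the stress genes, and those of WT -0.93, -1.04 and -0.82. Over the other named genes the WT sums were 0.02, -0.19 and -0.004, so only that of the receptor list stayed well below 0. All 18 transcription factors were tested, and 6 were above 0 in WT and 15 in PIGinH11. BHLHA15, also called MIST1, which organises the secretory apparatus, was higher in both libraries (158 and 49.3 CPM in WT, 71.7 and 29.5 in PIGinH11), and so was XBP1, which drives expansion of the endoplasmic reticulum (355 and 207 in WT, 185 and 90.8 in PIGinH11). PTF1A, the master regulator of acinar fate, had few UMIs (27 in WT members and 29 in PIGinH11 members), with log2 ratios of 0.34 and -0.03. The nuclear receptor NR5A2 (-0.95 and 0.05) and the zinc-finger factor GATA6 (-0.80 and 0.35) were lower in WT members. The ductal and endocrine progenitor factor ONECUT1 (-1.30 and -1.17), which is expressed in ducts, was lower in both. CCKAR, the cholecystokinin receptor, was at 244 CPM in WT members and 315 in others, and at 283 and 166 in PIGinH11, and over the other named genes the log2 ratio was 0.26 in WT and 0.86 in PIGinH11, while SCTR, the secretin receptor of ducts, was lower in both (-2.55 and -3.30). Among 14 tested stress genes (heat-shock and immediate-early genes and TXNIP), HSP90AB1, a cytosolic chaperone, was at least 2-fold higher in both (2.24 and 1.32), and FOS (-1.50 in WT, and -3.05 with an interval of -6.11 to -1.18 from 2 UMIs in PIGinH11 members) and EGR1 (-1.43 and -1.13), which respond within minutes to stimulation, were at least 2-fold lower in both. In all, 4 of the 14 were at least 2-fold lower in WT and 2 in PIGinH11, which is close to the 28.7% and 12.9% of all tested genes. Over the other named genes all WT ratios were 0.63 higher. By that denominator FOS and EGR1 were less than 2-fold lower in WT, and both stayed below 0, as did NR5A2 and GATA6. TXNIP, a thioredoxin-binding protein induced by glucose, went from 321 CPM in others to 266 in WT members and from 637 to 1179 in PIGinH11 members, but over the other named genes its log2 ratio was above 0 in both (0.36 and 0.98). The whole stress list, TXNIP included, went from 1481 CPM in PIGinH11 others to 1855 in members. TXNIP rose by more than this, so the rest of the list was lower in sum in PIGinH11 members.

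**Figure D3:**
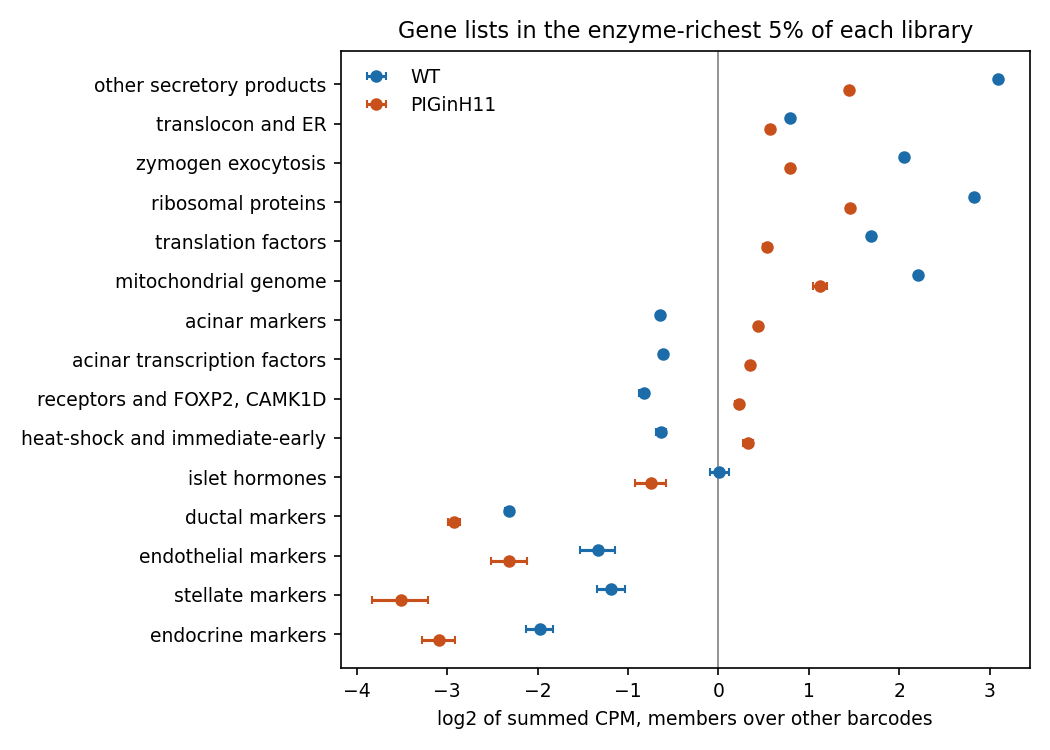
Log2 ratio of the summed CPM of each gene list in members over the other barcodes of the same library, with exact 95% counting intervals. Secretory, ribosomal protein and mitochondrial lists lie right of 0 in both libraries, and acinar markers lie at -0.64 in WT and 0.44 in PIGinH11.

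Markers of other cell types were lower in sum in the members than in all other barcodes for the ductal, endothelial, stellate, endocrine and macrophage lists of both libraries, and in members of acinar-like WT clusters they did not exceed acinar-like others for the ductal, endothelial, stellate and endocrine lists. The 11 ductal markers were all at least 2-fold lower in both libraries, where the background was 28.7% of tested genes in WT and 12.9% in PIGinH11, with sums of 2448 CPM in WT members and 1102 in PIGinH11 members, and SLC4A4, a bicarbonate transporter, as the gene with most UMIs (1148 and 438.5 CPM). Since most ductal cells were among the others by construction, the level in acinar-like others is the closer comparison, and it was 1158 in WT and 1202 in PIGinH11. By this comparison ductal markers were higher in WT members (log2 1.08, 1.03 to 1.13) and slightly lower in PIGinH11 members (-0.13, -0.20 to -0.05). WT members had 4319 ductal UMIs. Of these, 1104 lay in the 280 members of acinar-like clusters (1061 CPM) and 968 in the 342 of cluster 8. Much of the WT excess thus came from a few members in clusters of other types, 26 of them ductal-like. By CPM cluster 8 was above acinar-like others too (1625 against 1158), while per barcode it had fewer ductal UMIs (2.83 against 3.84). Endothelial, stellate and endocrine markers summed to 130, 194 and 219 CPM in WT members and to 130.5, 55.0 and 159 in PIGinH11 members, led in WT by PECAM1, EBF1 and PCSK2, and among these lists LUM was at 0 UMIs in WT members and SCG2 in PIGinH11 members. Over acinar-like others the log2 ratios of these 3 lists were 0.41 (0.21 to 0.61), 1.96 (1.79 to 2.13) and 0.65 (0.49 to 0.80) in WT and -0.42, -0.98 and -0.67 in PIGinH11. In WT members of acinar-like clusters these lists were at 88.4, 33.6 and 115 CPM, against 97.4, 49.7 and 140 in acinar-like others, so the WT ratios above 0 rested on the few members in clusters of other types. The clusters were named with these same marker lists, the ductal one included. A split by cluster name therefore places the markers in clusters of other types by construction, and no conclusion is drawn from it. Macrophage markers had 14 UMIs in all WT members and 11 in all PIGinH11 members, and CD163 had 0 in both. The lymphocyte list was at 510 and 632 CPM, of which SKAP1 gave 494 and 618 and PTPRC, the pan-leukocyte marker, 7.93 and 8.04. Islet hormones, led by INS, were at 440 CPM in WT members and 437 in others and at 184 and 309 in PIGinH11, and in cluster 8 at 660 CPM. The part of free RNA or of other cells in these values was not tested.

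Gene by gene, more genes were lower than higher in the members by the main denominator, and the ratios differed by gene length. In WT members 480 genes were at least 2-fold higher and 3073 lower (28.7% of 10723), in PIGinH11 members 233 and 1387 (12.9%), and 163 (1.52%) were higher and 1068 (9.96%) lower in both. Over the other named genes the same tested genes gave 993 higher and 800 lower in WT (55.4% of calls higher, against 13.5%) and 296 and 1282 in PIGinH11 (18.8%, against 14.4%), so the direction of the majority in WT was set by the denominator. Against acinar-like others alone, 182 genes were at least 2-fold higher and 216 lower in PIGinH11 members, so the excess of lower genes there was mostly not seen in that comparison, and 1941 were lower in WT members. Without cluster 8, 1030 genes were lower in WT members than in all others. For the 8776 of 9280 named tested genes with a length in the reference annotation, the median log2 ratio fell from -0.18 in the shortest 2194 genes (up to 18.2 kb) to -0.62, -0.82 and -0.99 in the next groups of that size in WT, and from 0.24 to 0.01, -0.13 and -0.36 in PIGinH11. These shortest genes held 36.4% of the UMIs of these genes in WT members against 10.8% in others, and 15.0% against 9.83% in PIGinH11. Among genes outside the lists, the highest in both libraries was CST3, the secreted cysteine protease inhibitor cystatin C, at 3104 CPM in WT members and 163 in others and at 288 and 55.7 in PIGinH11. It was followed by LRRC26, an auxiliary subunit of the BK potassium channel (log2 3.65 and 1.97), SLC25A6, a mitochondrial ADP/ATP carrier (3.48 and 1.71), COX8A, a nuclear-encoded subunit of cytochrome oxidase (2.87 and 1.64), and RACK1, a ribosome-bound scaffold (3.02 and 1.54). RPL36AL and the read-through loci RPL36A-HNRNPH2 and RPL17-C18orf32 were also among the 10 highest, and their reads may be shared with the ribosomal protein genes themselves. The lowest genes included the endothelial receptor ADGRF5, the growth factor VEGFC, the actin-binding protein NEBL and the calcium channel CACNA1A. NEBL had 5 UMIs in WT members (log2 -3.70, -5.33 to -2.48) and 9 in PIGinH11 members (-3.70, -4.83 to -2.77).

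**Figure D4:**
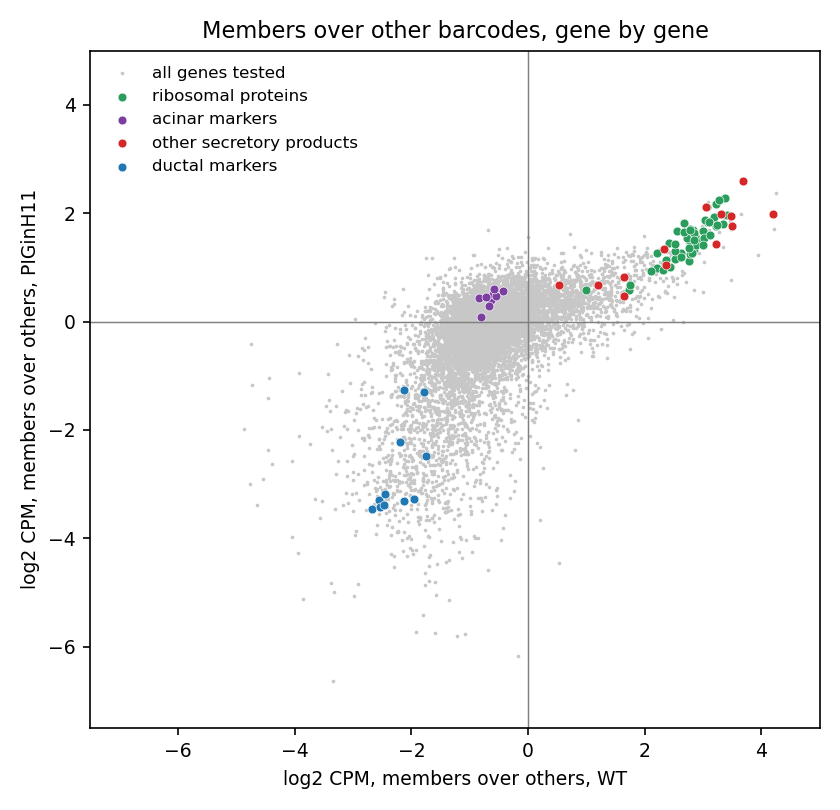
Log2 ratio of members over others for each of the 10723 tested genes, in WT (x axis) and PIGinH11 (y axis). Ribosomal proteins and other secretory products lie high in both, the 10 acinar markers lie below 0 in WT and above 0 in PIGinH11, and ductal markers lie low in both.

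Between the 2 libraries, PIGinH11 members had less secretory, ribosomal and mitochondrial RNA than WT members. In members, the secretory list had a PIGinH11 to WT log2 ratio of -1.83 (-1.85 to -1.82), against -0.19 in the other barcodes. Without the WT members of cluster 8 it was -1.19, and that of ribosomal proteins -1.57. With all members and in the other barcodes, the ratios were -2.19 (-2.22 to -2.17) and -0.82 for ribosomal proteins, and -2.52 (-2.59 to -2.44) and -1.43 for the mitochondrial genes. Within members, by the main denominator, 2757 genes (25.7%) were at least 2-fold higher in PIGinH11 and 652 (6.08%) lower, with a median over all tested genes of 0.59, and 10 of 13 secretory genes and 53 of 54 ribosomal protein genes were at least 2-fold lower. The other named genes took 55.6% of the UMIs outside the enzyme genes in WT members and 80.1% in PIGinH11 members. Divided by them, all of these ratios are lower (-2.36 for the secretory list). These counts were not made with that denominator, so the majority of higher genes is not shown to hold there. CTRL, a chymotrypsin-like protease, had 0 UMIs in WT members and 100.2 CPM in PIGinH11 members. With the WT count set at a floor of 3 UMIs over the group this was 58.9-fold, and the exact interval gave a smaller lower limit, log2 5.57. In the other barcodes CTRL differed as well, with 10 UMIs in all WT others (0.229 CPM) and 48.8 CPM in PIGinH11 others (log2 7.67). COL11A2, a fibrillar collagen chain, also had 0 UMIs in WT members and 387 CPM in PIGinH11 members. With the same floor this was 227-fold, and the exact interval gave a smaller lower limit, log2 7.53. In the other barcodes COL11A2 was at 0.435 CPM in WT and 276 in PIGinH11 (log2 9.27). The EGF-repeat gene MEGF11 (log2 5.22), TNFAIP8 (4.66), NELL1 (4.36) and the amino acid transporter SLC36A2 (3.85) followed among the highest, and in the other barcodes these differed in the same direction (3.22, 2.96, 3.29 and 2.98). The lowest were RDH16, a retinol dehydrogenase (-5.97), HSP70.2, an inducible heat-shock protein (-5.19, 428 and 11.7 CPM), AGT, angiotensinogen (-4.49), and KLK1, tissue kallikrein (-3.76). In the other barcodes the values were -5.82 for HSP70.2, -5.29 for RDH16, -1.78 for AGT and -2.02 for KLK1.

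With a common lower limit on the enzyme share, the lower secretory and ribosomal levels of PIGinH11 were not seen, while the mitochondrial level was still lower. When barcodes with a share of at least 20% were compared in both libraries (684 in WT and 22 in PIGinH11, a level set after the values were seen), the PIGinH11 to WT log2 ratio was 0.38 (0.34 to 0.41) for the secretory list, 0.03 (-0.04 to 0.09) for ribosomal proteins and -0.92 (-1.17 to -0.68) for the mitochondrial genes (3059 and 5775 CPM). This limit does not match the shares, since 233 of the WT barcodes and 0 of the PIGinH11 barcodes lay at 50% or more. Within the band of 10% to 15%, also set after the values were seen, the ratios were 0.54 (0.52 to 0.57) for the secretory list, 0.11 (0.06 to 0.17) for ribosomal proteins and -1.28 (-1.44 to -1.14) for the mitochondrial genes. In the band of 20% to 30%, with 7 PIGinH11 barcodes, they were 0.68 (0.62 to 0.74), 0.38 (0.27 to 0.48) and 0.10 (-0.18 to 0.38). In that of 30% to 40%, with 13 PIGinH11 barcodes, they were 1.22 (1.17 to 1.27), 0.76 (0.66 to 0.86) and -1.70 (-2.28 to -1.17), the last from 29 UMIs. Against the rest of their own library, the barcodes at 20% or more had log2 ratios of 3.06 in WT and 3.50 in PIGinH11 for the secretory list, 2.80 and 3.52 for ribosomal proteins, and -0.59 and -0.96 for acinar markers. Split by enzyme share, secretory levels were higher in each higher band of both libraries up to 40%. From the band of 10% to 15% to that of 20% to 30%, the secretory list went from 28835 to 59521 CPM in WT (1353 and 256 barcodes) and from 42052 to 95387 in PIGinH11 (100 and 7 barcodes). In the band of 30% to 40% the secretory list was at 91744 CPM and acinar markers at 15545 in 80 WT barcodes, and at 213482 and 2108 in 13 PIGinH11 barcodes. In the band of 40% to 50% the 115 WT barcodes had 177615 and 5900 CPM, a band higher than that in which PIGinH11 barcodes had their low marker level. Genes detected per 500 UMIs dropped over the same bands, from 343 to 199 in WT between 30% to 40% and 40% to 50%, and from 337 to 174 in PIGinH11 between 20% to 30% and 30% to 40%. The PIGinH11 barcodes at 30% or more were 15 in number and their clusters were named acinar-like, although their acinar markers averaged 2.77 UMIs per barcode in the band of 30% to 40%.

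**Figure D5:**
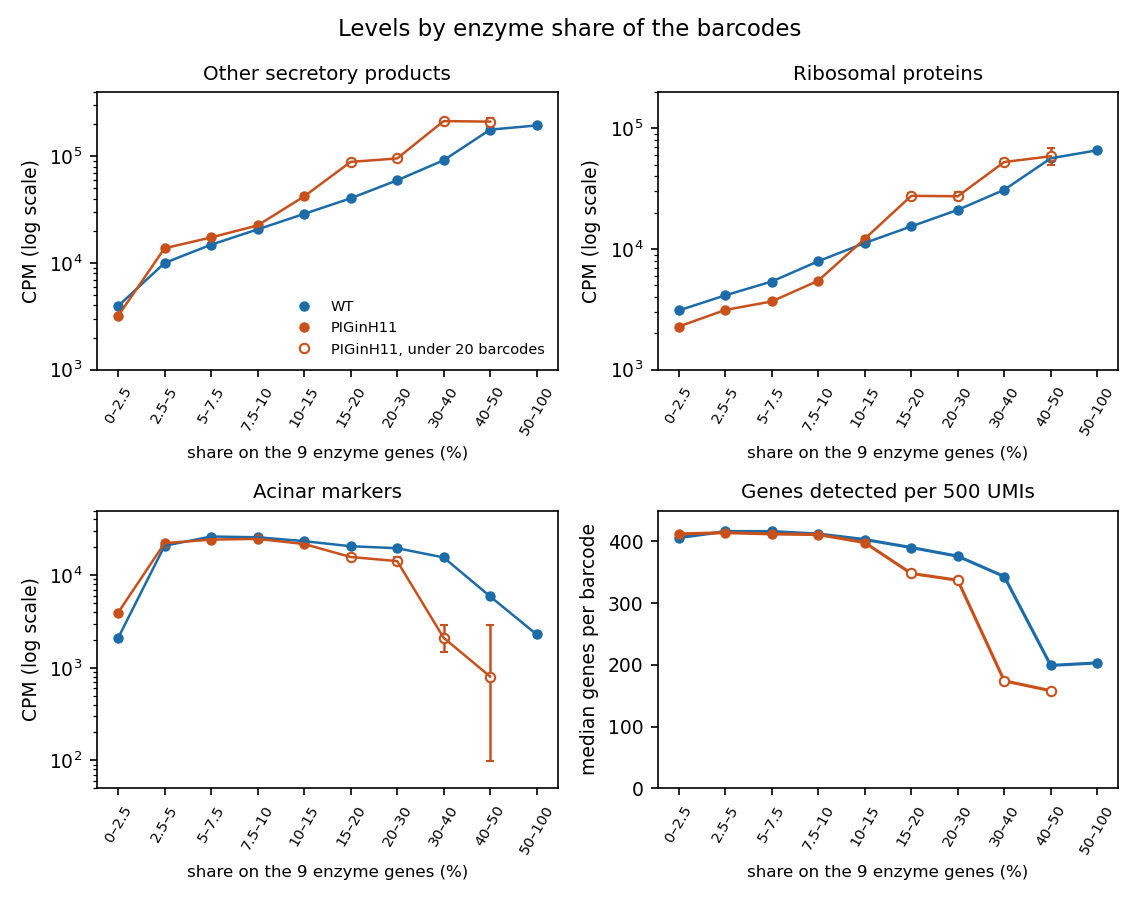
CPM of 3 gene lists (log scale, with 95% counting intervals) and the median number of genes per 500 UMIs, by band of enzyme share, for WT and PIGinH11. Open circles are bands of fewer than 20 barcodes, all of them PIGinH11, and the drop in acinar markers and in genes falls between 20% and 40% in PIGinH11 and between 30% and 50% in WT.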

How the data were processed

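The values used were deposited UMI counts, with gene lengths from the Sscrofa11.1 RefSeq annotation. The authors prepared nuclei on an iodixanol gradient, aligned reads to Sscrofa11.1 with Cell Ranger (v3.1.0 in the methods, v5.0.0 in the matrix headers), called barcodes by EmptyDrops and deposited raw UMI counts per gene and barcode, before doublet removal. Strand and intron settings are not given in the sources used here. The matrices listed 31908 genes, 15410 of them without a symbol, of which 841 were named from the reference. The UMI limit printed in the study's methods is far smaller than the upper limit of 13000 that was used here.

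Members and gene lists were chosen with earlier results of these data known. UMIs were summed over members and others, divided by all UMIs outside the 9 enzyme genes, and compared as log2 ratios with exact conditional binomial 95% intervals (Poisson for sums, Clopper-Pearson for shares). A gene was tested when at least 10 UMIs were expected in the members of each library, and called at a 2-fold ratio with a pseudocount of 0.5 UMI. Clusters came from scanpy v1.11.5 and igraph v0.11.9 (2000 variable genes, 30 components, 20 neighbours, Louvain resolution 1), per library. Clusters were named from at least 3 markers of the same cell type lists that are compared above, and those left unnamed were compared once more with the named ones only, a step added after the data were seen. Doublets were Scrublet's highest-scoring 0.8% per 1000 barcodes and were kept. Named genes were those of the secretory, acinar marker, transcription factor, receptor and stress lists, the 3 genes with most UMIs of each other list, the 10 highest and lowest genes outside the lists in both libraries, and the 8 highest and lowest between libraries among genes with at least 100 UMIs. Genes named beyond this (EEF1G, EEF2 and the markers at 0) were chosen after their values were seen. Alternatives were other top shares, ranking without PRSS2, other denominators, the mean over barcodes, thinning, doublet removal, acinar-like others, no filter and a larger pseudocount. The ratios were tested on simulated data, and no outcome of this is reported here. Some listed genes are not reported here.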

Additional observations from a re-analysis of the deposited data

Results flagged for a closer look

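For 5 gene lists the sum was lower in members than in others in WT and higher in PIGinH11, with counting intervals that did not hold 0, and the difference between the libraries was not tested. Some of these lists share a gene (RBPJL or FOXP2) and so are not independent. The log2 ratio of members over others was -0.64 in WT and 0.44 in PIGinH11 for acinar markers, -0.62 and 0.35 for acinar transcription factors, -0.83 and 0.23 for the receptor and signalling list, -0.64 and 0.32 for the stress genes (heat-shock and immediate-early genes and TXNIP), and -0.59 and 0.25 for the lymphocyte list. In the lymphocyte list SKAP1 held 871 of the UMIs in WT members and 1000 in PIGinH11 members, with log2 ratios of -0.58 and 0.41. In the stress list TXNIP alone had log2 ratios of -0.27 and 0.89. Without TXNIP the sum of the stress list was lower in members of both libraries, so its opposite signs rested on TXNIP. Against acinar-like others alone, a group named with the acinar markers themselves, the WT sums stayed below 0, and the PIGinH11 values were -0.024 (-0.039 to -0.009) for acinar markers, 0.017 (-0.006 to 0.040) for the transcription factors, -0.052 (-0.091 to -0.013) for the receptor list, 0.26 (0.21 to 0.32) for the stress genes and 0.016 (-0.079 to 0.109) for the lymphocyte list. Over the other named genes the WT sums were -0.01 (-0.026 to 0.012), 0.02, -0.19, -0.004 and 0.04 in the same order. By that denominator only the receptor list stayed well below 0 in WT, so opposite directions were not seen for the other lists. At a share of 20% or more in both libraries, acinar markers were at -0.59 in WT and -0.96 in PIGinH11, so there the signs were the same.

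Barcodes outside the limits on genes and UMIs were not compared above, and enzyme-rich ones were more frequent among them. A share of at least 20% on the 9 enzyme genes was reached by 109 of 430 such WT barcodes (25.3%, 21.3% to 29.7%), against 5.19% within the limits, and 108 of these were at or above the UMI limit, with a median of 16348 UMIs over the 109. In PIGinH11 it was reached by 3 of 56 (5.36%, 1.12% to 14.9%), all 3 under 270 genes, against 0.148% within the limits.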

How the results depend on the processing

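The results below are log2 ratios of members over others for the secretory list, ribosomal proteins and acinar markers, counts of genes at least 2-fold higher or lower, and log2 ratios of PIGinH11 over WT. Of 133 recomputed values, 30 stayed within the counting interval of the reported ratio or within 1.5 times the reported count, 99 kept their direction or were counts and moved beyond this, and 4 ratios changed sign. Counting intervals are narrow beside the differences between settings, and the causes were not tested. The secretory list and ribosomal proteins stayed above 0 in both libraries in every setting run. In the top 2% of barcodes, the values were the secretory list 3.66 in WT and 1.88 in PIGinH11, ribosomal proteins 3.44 in WT and 2.00 in PIGinH11, acinar markers -3.05 in WT and 0.29 in PIGinH11, genes lower 5185 in WT and 664 in PIGinH11, PIGinH11 over WT -2.13 for the secretory list and -2.40 for ribosomal proteins. In the top 10%, the values were the secretory list 2.68 in WT and 1.19 in PIGinH11, ribosomal proteins 2.45 in WT and 1.09 in PIGinH11, acinar markers -0.27 in WT and 0.51 in PIGinH11, genes lower 1223 in WT, PIGinH11 over WT -1.64 for the secretory list and -2.13 for ribosomal proteins. With barcodes ranked by 8 genes without PRSS2, the values were the secretory list 3.06 in WT and 1.33 in PIGinH11, ribosomal proteins 2.77 in WT and 1.26 in PIGinH11, acinar markers -0.52 in WT and 0.47 in PIGinH11, PIGinH11 over WT -1.91 for the secretory list and -2.31 for ribosomal proteins. With secretory, ribosomal and mitochondrial genes left out of the denominator, the values were the secretory list 3.31 in WT and 1.49 in PIGinH11, ribosomal proteins 3.05 in WT and 1.496 in PIGinH11, acinar markers -0.42 in WT and 0.48 in PIGinH11, genes lower 1712 in WT, PIGinH11 over WT -2.02 for the secretory list and -2.38 for ribosomal proteins. With the mean over barcodes, the values were the secretory list 2.99 in WT and 1.28 in PIGinH11, ribosomal proteins 2.70 in WT and 1.21 in PIGinH11, acinar markers -1.07 in WT and 0.42 in PIGinH11, genes lower 4971 in WT, PIGinH11 over WT -2.10 for the secretory list and -2.52 for ribosomal proteins. After thinning to 500 UMIs, the values were the secretory list 3.05 in WT and 1.27 in PIGinH11, ribosomal proteins 2.77 in WT and 1.23 in PIGinH11, acinar markers -1.11 in WT, genes higher 213 in WT and 122 in PIGinH11, genes lower 391 in PIGinH11, PIGinH11 over WT -2.15 for the secretory list and -2.55 for ribosomal proteins. With doublets removed first, the values were the secretory list 3.16 in WT and 1.501 in PIGinH11, ribosomal proteins 2.89 in WT and 1.53 in PIGinH11, acinar markers -0.62 in WT, PIGinH11 over WT -1.86 for the secretory list. Against acinar-like others only, the values were the secretory list 2.81 in WT and 1.02 in PIGinH11, ribosomal proteins 2.71 in WT and 1.31 in PIGinH11, acinar markers -1.11 in WT and -0.024 in PIGinH11, genes lower 1941 in WT and 216 in PIGinH11. Without the filter on expected UMIs, the values were genes higher 5420 in WT and 3577 in PIGinH11, genes lower 5922 in WT and 5216 in PIGinH11. With a pseudocount of 5 UMIs, the values were genes lower 1595 in WT. At a share of 20% or more in both libraries, the values were the secretory list 3.06 in WT and 3.50 in PIGinH11, ribosomal proteins 2.80 in WT and 3.52 in PIGinH11, acinar markers -0.59 in WT and -0.96 in PIGinH11, genes higher 18 in WT and 17 in PIGinH11, genes lower 256 in WT and 509 in PIGinH11, PIGinH11 over WT 0.38 for the secretory list and 0.026 for ribosomal proteins. With other named genes as the denominator, the values were the secretory list 3.72 in WT and 1.54 in PIGinH11, ribosomal proteins 3.46 in WT and 1.55 in PIGinH11, acinar markers -0.0068 in WT and 0.54 in PIGinH11, genes higher 864 in WT, genes lower 628 in WT, PIGinH11 over WT -2.36 for the secretory list and -2.72 for ribosomal proteins. Without the WT members of cluster 8, the values were the secretory list 2.45 in WT, ribosomal proteins 2.20 in WT, acinar markers -0.15 in WT, genes higher 305 in WT, genes lower 1030 in WT, PIGinH11 over WT -1.19 for the secretory list and -1.57 for ribosomal proteins. The last 3 settings were chosen after seeing the data. The number of tested genes ranged from 948 at a share of 20% or more to 26297 without the filter, and the 22 PIGinH11 barcodes at that share limit its counts. No paired analysis was possible because each group has 1 library and the result comes from no test. Depth limited PIGinH11 more than WT, genes with few UMIs carry wide intervals, and neither library can show how animals differ.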

Other observations

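Epithelial keratins were measured with a list of regeneration and injury genes, of which 14 of 19 were in the matrices and 7 were tested. KRT8 was at 135 CPM in WT members and 72.7 in others, and at 69.3 and 42.0 in PIGinH11, and KRT18 at 107 and 49.7 in WT and 45.1 and 38.1 in PIGinH11. Both keratins, which acinar and ductal cells share, thus had higher values in members than in others of each library, and over the other named genes this held as well, since that denominator only raises the ratios. TFF2 was higher in both as well (log2 3.31 and 1.98), and the other tested genes of the list were not. CD44 (log2 -1.59 in WT and -0.97 in PIGinH11) and KRT7, a ductal keratin (-1.10 and -1.60), were lower in both libraries, CLU was at 0.16 and -1.26, and SPP1, osteopontin, was at 0.51 in WT and had 0 UMIs in PIGinH11 members. In all, 2 of the 7 genes were at least 2-fold lower in WT, which is the share of all tested genes (28.7%), and 3 in PIGinH11 (12.9% of all tested genes), and the median was 0.53 in WT and -0.96 in PIGinH11. The list's sum (log2 2.72 in WT and 0.97 in PIGinH11) came almost wholly from TFF2, which had 8774 and 1004 UMIs in members. LPL, which encodes lipoprotein lipase, was the only one of 6 adipocyte markers with enough UMIs to be tested, at 127 CPM in WT members and 70.18 in others and at 186 and 104 in PIGinH11, while ADIPOQ had 2 UMIs in WT members and 0 in PIGinH11 members. Schwann cell and mural markers were lower in sum in members (log2 -1.91 and -1.19 in WT, -1.50 and -2.99 in PIGinH11), proliferation markers had too few UMIs to be tested, and HBB, the beta chain of haemoglobin, had 47 UMIs in WT members (26.6 CPM against 7.83 in others) and 12 in PIGinH11 members (7.42 against 8.99).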
